A study of Mus musculus with 12 samples.

Results

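Retinoids, the active forms of vitamin A, were followed here through the transcripts of 9 genes that carry, make, break down or sense them: Rbp4, Stra6, Crabp1, Aldh1a1, Cyp26b1, Rara, Rarb, Rxra and Rxrg. The genes were given by name, and every probe set annotated with a single one of these symbols was taken, which gave 11 of the 45037 probe sets tested and 9 of the 18193 genes measured. Rxra had 3 probe sets and each other gene had 1. The probe set that leads for a gene was chosen by its mean over the 12 arrays, the highest one taking the lead. That mean is the only measured value the choice used, so it is described and not tested.

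The tissue came from male Swiss mice, an outbred stock, that could choose between water and ethanol at 5% and 10%. From 6 weeks of age they went through 10 weeks of acquisition, 2 weeks of withdrawal, 2 weeks of reinstatement and 2 weeks with quinine at 0.005 g/L in the ethanol, and then 1 more week of free choice. The labels give 16 weeks in total and 22 weeks of age when it ended, although the stages up to quinine already fill that time and leave no room for the final week. Mice classed as inflexible drinkers preferred ethanol at every stage, quinine included, and light drinkers preferred water. Both classes had access to ethanol and to quinine, so neither is an ethanol-naive control, and mice that gave up ethanol once it was bitter are not analysed here. Blood ethanol in the labels was 113 ± 11.3 mg/dL for inflexible and 48 ± 13.3 mg/dL for light drinkers (the labels do not say which error this is). Prefrontal cortex and whole striatum were each measured on 3 arrays per class, 12 in all. The labels give a single RNA pool for each group, so the arrays of a group may be repeated hybridisations of a pool, and every p-value covers the spread between arrays and not between mice.

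In the body, retinol travels in blood bound to retinol-binding protein and transthyretin, enters cells through the receptor STRA6, and is oxidised by alcohol and aldehyde dehydrogenases to retinoic acid. Retinoic acid binds nuclear receptors of the RAR family, which sit on DNA as dimers with RXR receptors and switch genes on or off, and CYP26 enzymes remove it. In the adult brain the receptors RARβ and RXRγ are known for their high expression in the striatum, where medium spiny neurons, the projection neurons of that region, carry them, and retinoid signalling takes part in the expression of dopamine receptors there. Ethanol is oxidised by some of the same dehydrogenase families as retinol.

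The promoter of Rarb is shown first because this gene moved most among the 9. For Rxrg and Rbp4, which were next in the comparisons below, 1 of the 2 annotated windows of each is shown. The sequences are from RefSeq on mouse build GRCm38.p6 and run from 250 bases before to 50 bases after the annotated start, 5′ to 3′ on the gene's own strand. Capitals mark receptor half-sites, searched for on both strands as the consensus AGGTCA, its variant AGTTCA, the form GGGTCA or the form GGTTCA. Where TGACCC is in capitals, GGGTCA lies on the opposite strand.
Rarb, chr14:16575427-16575726, minus strand: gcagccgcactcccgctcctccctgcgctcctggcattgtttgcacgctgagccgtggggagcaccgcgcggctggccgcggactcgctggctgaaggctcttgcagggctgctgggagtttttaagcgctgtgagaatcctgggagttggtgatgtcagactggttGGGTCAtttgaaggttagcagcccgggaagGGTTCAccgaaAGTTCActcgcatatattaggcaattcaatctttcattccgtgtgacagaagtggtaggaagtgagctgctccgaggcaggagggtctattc
Rxrg, chr1:167618015-167618314, plus strand: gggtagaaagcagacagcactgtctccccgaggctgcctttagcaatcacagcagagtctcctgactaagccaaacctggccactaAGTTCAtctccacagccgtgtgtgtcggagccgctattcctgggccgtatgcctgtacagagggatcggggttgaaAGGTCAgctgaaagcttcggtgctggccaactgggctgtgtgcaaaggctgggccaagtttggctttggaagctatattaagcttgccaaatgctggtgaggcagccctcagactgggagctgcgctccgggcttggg
Rbp4, chr19:38125272-38125571, minus strand: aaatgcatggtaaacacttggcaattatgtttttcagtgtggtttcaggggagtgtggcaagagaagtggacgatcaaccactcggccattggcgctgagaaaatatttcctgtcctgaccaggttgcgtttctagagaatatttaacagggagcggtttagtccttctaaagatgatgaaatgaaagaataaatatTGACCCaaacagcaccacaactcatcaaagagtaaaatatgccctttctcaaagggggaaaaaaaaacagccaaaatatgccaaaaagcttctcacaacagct

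All 9 genes had at least 1 window in the RefSeq table, 19 windows in all. A half-site was found in 9 of the 19 windows and in at least 1 window of 7 of the 9 genes, and 43.7% of all 32544 promoter windows of this length held one, so a single half-site does not set these genes apart. In the Rarb window the half-site GGTTCA was followed on the same strand, after 5 bases, by the half-site AGTTCA, and the whole match (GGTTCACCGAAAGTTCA) began at position -53 from the annotated start. This layout, a direct repeat with that spacing, is the textbook form of a retinoic acid response element, and the Rarb promoter is the classical example of one. A direct repeat spaced by 5 bases was present in 0.0983% of all windows, and Rarb was the only one of the 9 genes with a direct repeat at any spacing from 1 to 5. The forms searched for included GGTTCA and AGTTCA, the half-sites of this known Rarb element. Its match was therefore fixed in advance, and the contrast with other genes and windows is described and not tested. The second Rxrg window held 2 half-sites too far apart for such a repeat, and the Rbp4 window shown held 1. For both genes the window shown is the one with more half-sites. The window not shown held 1 for Rxrg and 0 for Rbp4. A match describes the letters, and nothing measured here shows that a receptor sits on them.

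Levels are on the deposited log2 scale, with mean ± SD taken over 3 arrays, and differences carry their SE on the same scale. A gene was called when its adjusted p was under 0.05 in a limma fit over all 45037 probe sets and 12 arrays. Of the 9 genes, 3 had a mean above log2 4 over the 12 arrays (Rbp4, Aldh1a1 and Rarb) and 6 lay below it, a range in which this kind of summary compresses differences. Some group means of the 3 lay in that range too. Rarb was at 3.33 in light prefrontal cortex, and Rbp4 at 3.87 in inflexible prefrontal cortex and 3.99 in light striatum. Across all probe sets 24.1% had a mean above that level. Levels are compared between groups of arrays for the same probe set and not between genes.

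Rarb was higher in inflexible than in light drinkers in prefrontal cortex, and higher in striatum than in prefrontal cortex in both classes. Rxrg was higher in striatum in both classes, with smaller differences between the drinking classes that did not pass the test. Rbp4 was not called between drinking classes in either region, with a striatal difference of 0.50 ± 0.16, and passed in striatum only when a split between arrays was fitted as a block. The other 6 genes gave no call in any of the 5 comparisons made.

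**Figure D1:**
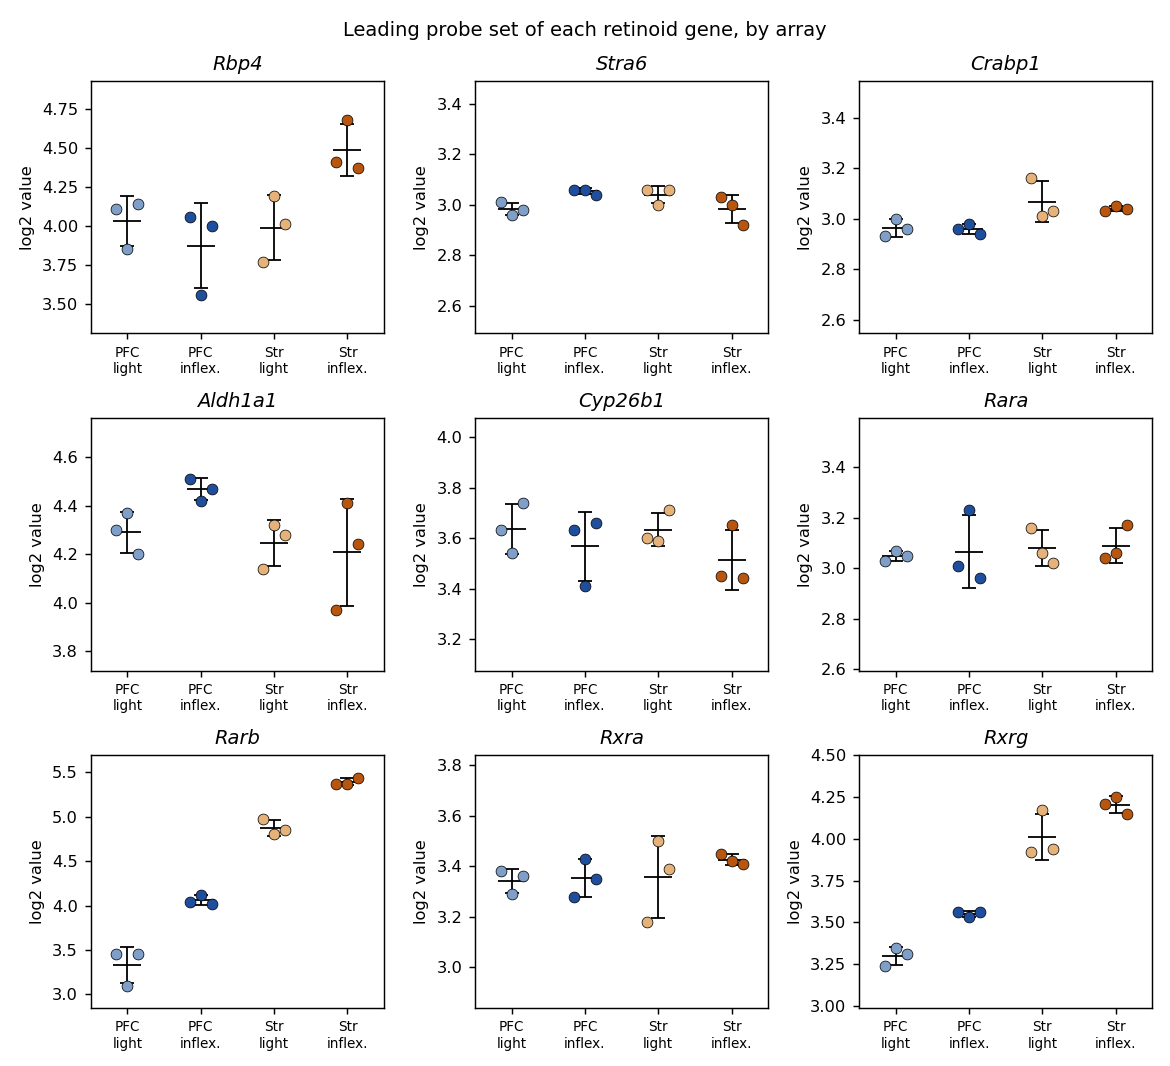
Deposited log2 value (vertical axis, a separate range in each panel) of the leading probe set of each of the 9 retinoid genes on the 12 arrays; dots are arrays, lines the group mean and SD of 3 arrays. Rarb lies at 4 separate levels, from 3.33 in light prefrontal to 5.39 in inflexible striatal arrays, while Rara stays between 2.96 and 3.23.

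The carriers and the uptake receptor come first. Rbp4 encodes the protein that carries retinol out of the liver and through the blood. In prefrontal cortex its arrays read 4.06, 3.56 and 4.00 in inflexible drinkers (3.87 ± 0.28) and 4.11, 3.85 and 4.14 in light drinkers (4.03 ± 0.16). In striatum they read 4.41, 4.68 and 4.37 in inflexible drinkers (4.49 ± 0.17) and 3.77, 4.19 and 4.01 in light drinkers (3.99 ± 0.21). The prefrontal groups overlapped, with the array at 3.56 the lowest of all 12, whereas in striatum every inflexible array lay above every light one.

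The prefrontal difference for Rbp4, inflexible minus light, was -0.16 ± 0.16 (95% interval -0.52 to 0.19, limma adjusted p = 0.986). In striatum it was 0.50 ± 0.16, or 1.41-fold (95% interval 0.14 to 0.85), and it was not called (limma adjusted p = 1.00, unadjusted p under 0.05). The striatal minus the prefrontal difference, tested as such, was 0.66 ± 0.22 (95% interval 0.16 to 1.16, limma adjusted p = 0.58). Between regions, Rbp4 was 0.62 ± 0.16 higher in striatum in inflexible drinkers, with no overlap (1.53-fold, limma adjusted p = 0.181), and differed by -0.04 ± 0.16 in light drinkers (95% interval -0.40 to 0.31).

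Rbp4 also ran with a technical measure. The 9 spiked hybridisation controls were high on 5 arrays and low on 7, and within each of the 4 groups the arrays with high controls had the lower Rbp4 values. With this split as a block, the striatal difference in limma was 0.61 ± 0.06 (adjusted p = 0.0186), the difference between regions in the drinking effect 0.78 ± 0.08 (adjusted p = 0.00318), and the region difference in inflexible drinkers 0.73 ± 0.06 (adjusted p = 0.000507). Within the low-control arrays the striatal difference was 0.58 ± 0.08 (limma adjusted p = 0.163) and within the high-control arrays 0.62 ± 0.05 (limma adjusted p = 0.784). Each side holds 1 array of a striatal class, a single inflexible array among the low and a single light array among the high, and its spread is assumed to be that of the other groups. The residual degrees of freedom were 7 with the block, 3 on the low side and 1 on the high side. No label names a batch, and what the split stands for is not given in the sources used here.

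Transthyretin, encoded by Ttr, is the partner of retinol-binding protein in blood and is made in the brain by the choroid plexus. Ttr read 11.04, 10.28 and 11.03 in inflexible and 4.69, 4.36 and 4.55 in light prefrontal arrays, a rise of 6.25 ± 0.23 (limma adjusted p = 3.88e-06), while Rbp4 on the same arrays gave the -0.16 above. In striatum Ttr read 10.92, 11.37 and 10.85 in inflexible and 11.02, 11.48 and 11.48 in light drinkers, a difference of -0.29 ± 0.23 (limma adjusted p = 1.00). Ttr and Rbp4 therefore showed different group patterns: the low group for Ttr was light prefrontal cortex, and the high group for Rbp4 was inflexible striatum. The list of choroid plexus markers, 17 measured, holds Ttr itself, and its level was taken as the log2 of the summed unlogged values. This level ran from 10.47 to 11.16 in inflexible and from 7.54 to 7.61 in light prefrontal arrays. In striatum it ran from 10.99 to 11.47 in inflexible and 11.15 to 11.58 in light arrays. Outside light prefrontal cortex Ttr was by far the brightest of the list, so the sum there mostly restates Ttr. The median prefrontal difference over the list was 0.18, with 1 marker called higher by limma and 1 lower, and 8 of the 17 had an unadjusted p under 0.05. In striatum 0 of the 17 were called by limma and 0 had an unadjusted p under 0.05, with a median difference of -0.04. The part of choroid plexus tissue in the Rbp4 values was not tested.

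**Figure D2:**
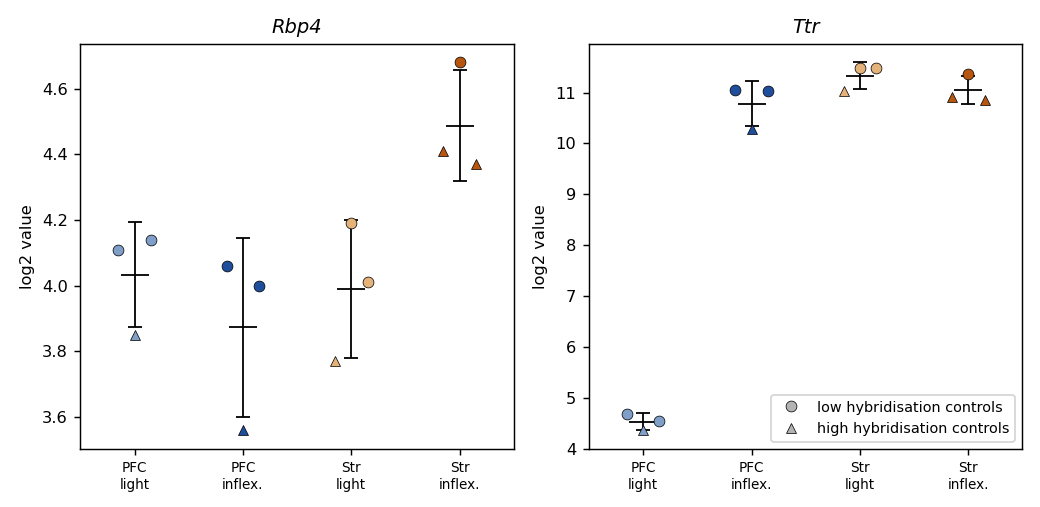
Deposited log2 values of Rbp4 and Ttr (vertical axes, separate ranges) on the 12 arrays; circles are arrays with low and triangles arrays with high hybridisation controls, lines the mean and SD of 3 arrays. Triangles sit lowest within each group for Rbp4, and Ttr is low in light prefrontal arrays only, at 4.36 to 4.69.

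Stra6, the cell-surface receptor that takes up retinol from its carrier, had a mean of 3.01 over the 12 arrays. It read 3.06, 3.06 and 3.04 in inflexible and 3.01, 2.96 and 2.98 in light prefrontal arrays, and 3.03, 3.00 and 2.92 in inflexible and 3.06, 3.00 and 3.06 in light striatal arrays. The whole range was narrow, and the prefrontal groups did not overlap although they lay close together. The differences were 0.07 ± 0.03 in prefrontal cortex (95% interval 0.00 to 0.14, limma adjusted p = 0.656) and -0.06 ± 0.03 in striatum (95% interval -0.13 to 0.01, limma adjusted p = 1.00). The difference between these was -0.13 ± 0.04 (limma adjusted p = 0.59, unadjusted p under 0.05).

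Crabp1, which binds retinoic acid inside the cell, also had a mean of 3.01. Prefrontal arrays lay between 2.93 and 3.00 and striatal arrays between 3.01 and 3.16, so the regions did not overlap in either class. Striatum exceeded prefrontal cortex by 0.10 ± 0.04 in light drinkers (limma adjusted p = 0.282) and by 0.08 ± 0.04 in inflexible drinkers (limma adjusted p = 0.705). Between drinking classes the differences were -0.01 ± 0.04 in prefrontal cortex (95% interval -0.09 to 0.08) and -0.03 ± 0.04 in striatum (95% interval -0.11 to 0.06).

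Of the enzymes, Aldh1a1 encodes an aldehyde dehydrogenase that makes retinoic acid from retinaldehyde and also oxidises other aldehydes. It read 4.51, 4.42 and 4.47 in inflexible and 4.30, 4.37 and 4.20 in light prefrontal arrays, so that every inflexible array lay above every light one. In striatum it read 3.97, 4.41 and 4.24 in inflexible and 4.14, 4.32 and 4.28 in light drinkers, where the inflexible arrays spanned the light ones. The prefrontal difference was 0.18 ± 0.10 (95% interval -0.05 to 0.40, limma adjusted p = 0.836) and the striatal one -0.04 ± 0.10 (95% interval -0.26 to 0.18, limma adjusted p = 1.00).

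The region difference of Aldh1a1, striatum minus prefrontal cortex, was -0.26 ± 0.10 in inflexible drinkers, without overlap (limma adjusted p = 0.536), and -0.04 ± 0.10 in light drinkers (limma adjusted p = 0.975). In the brain this enzyme is best known from a set of midbrain dopamine neurons, whose axons reach the striatum. On the list of midbrain dopamine neuron markers, 10 of the 11 measured lay below log2 4 on every array of each group, and the defining genes Th and Slc6a3 read 2.93 to 3.13 and 2.92 to 3.01 over the 12 arrays.

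Cyp26b1 encodes the main enzyme that clears retinoic acid in brain tissue. It read 3.63, 3.41 and 3.66 in inflexible and 3.63, 3.54 and 3.74 in light prefrontal arrays, and 3.45, 3.65 and 3.44 in inflexible and 3.60, 3.59 and 3.71 in light striatal arrays. All 4 groups overlapped. Its differences were -0.07 ± 0.08 in prefrontal cortex (95% interval -0.26 to 0.11) and -0.12 ± 0.08 in striatum (95% interval -0.30 to 0.07), with limma adjusted p of 0.996 and 1.00. The region differences were -0.01 ± 0.08 in light and -0.05 ± 0.08 in inflexible drinkers.

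Among the retinoic acid receptors, Rarb separated all 4 groups. Its arrays read 3.45, 3.10 and 3.45 in light prefrontal cortex (3.33 ± 0.20) and 4.04, 4.12 and 4.02 in inflexible prefrontal cortex (4.06 ± 0.05). In striatum they read 4.97, 4.80 and 4.85 in light drinkers (4.87 ± 0.09) and 5.37, 5.37 and 5.44 in inflexible drinkers (5.39 ± 0.04). No neighbouring pair of groups overlapped, and the inflexible group was the higher one within each region.

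In prefrontal cortex Rarb rose by 0.73 ± 0.09 in inflexible drinkers, or 1.66-fold (95% interval 0.53 to 0.93, limma adjusted p = 0.00471), the 99th smallest p of all probe sets. Its light prefrontal mean of 3.33 lay below log2 4, where differences are compressed, so the size of differences against that group is uncertain. The call rests on the spread shared by all 12 arrays: with the 6 prefrontal arrays alone the same difference had a limma adjusted p of 0.077, and with the replicate number as a block on those 6 arrays one of 0.0619. With the number as a block on all 12 arrays limma gave an adjusted p of 0.0174. Leaving out single prefrontal arrays gave differences from 0.61 to 0.79 and limma adjusted p from 0.00205 to 0.0254. The difference was 0.58 ± 0.03 within the low-control arrays (limma adjusted p = 0.00446) and 1.02 ± 0.07 on the high-control arrays, 1 per prefrontal group (limma adjusted p = 0.546, 0 calls among all probe sets).

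In striatum the Rarb difference was 0.52 ± 0.09, or 1.44-fold (95% interval 0.33 to 0.72). It was not called (limma adjusted p = 0.219), although its p was the 32nd smallest of all probe sets, in a comparison in which limma called 5 probe sets in all. Without the second light prefrontal array, which is not part of this comparison but adds to the shared spread, the same difference had a limma adjusted p of 0.0339. The striatal minus the prefrontal difference was -0.21 ± 0.12 (95% interval -0.48 to 0.07, limma adjusted p = 0.999), so a call in one region and none in the other does not show that the regions differ.

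Between regions, Rarb was 1.54 ± 0.09 higher in striatum in light drinkers (2.91-fold, limma adjusted p = 1.8e-05) and 1.33 ± 0.09 higher in inflexible drinkers (2.52-fold, limma adjusted p = 0.000233). These comparisons share their arrays with the drinking comparisons, so the low light prefrontal values enter both the 0.73 and the 1.54.

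Rara, the receptor found in most tissues, showed none of this, but its mean over the 12 arrays was 3.07, below the array medians of 3.12 to 3.14. At so low a level a difference could stay hidden, so its flat values are no contrast with Rarb. It read 3.01, 3.23 and 2.96 in inflexible and 3.03, 3.07 and 3.05 in light prefrontal arrays, and 3.04, 3.06 and 3.17 in inflexible and 3.16, 3.06 and 3.02 in light striatal arrays. All groups overlapped. The differences were 0.01 ± 0.07 in both regions, with 95% intervals of -0.14 to 0.17 in prefrontal cortex and -0.15 to 0.16 in striatum.

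Rxrg encodes a retinoid X receptor, the dimer partner of RARs, in a form restricted to few brain regions. It read 3.24, 3.35 and 3.31 in light (3.30 ± 0.06) and 3.56, 3.53 and 3.56 in inflexible prefrontal cortex (3.55 ± 0.02). In striatum it read 3.92, 4.17 and 3.94 in light (4.01 ± 0.14) and 4.21, 4.25 and 4.15 in inflexible drinkers (4.20 ± 0.05). The order of the groups was the same as for Rarb, but the second light striatal array, at 4.17, lay above the lowest inflexible one.

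The region difference of Rxrg was 0.71 ± 0.06 in light (1.63-fold, limma adjusted p = 0.00018) and 0.65 ± 0.06 in inflexible drinkers (1.57-fold, limma adjusted p = 0.00139). Within the low-control arrays, where a single inflexible striatal array is left, the latter was 0.69 ± 0.10 (limma adjusted p = 0.0633). Between drinking classes the differences were 0.25 ± 0.06 in prefrontal cortex (1.19-fold, 95% interval 0.11 to 0.38, limma adjusted p = 0.149) and 0.19 ± 0.06 in striatum (1.14-fold, 95% interval 0.05 to 0.33, limma adjusted p = 1.00). Neither was called, and -0.06 ± 0.09 lay between them (95% interval -0.25 to 0.14). Leaving out the second light striatal array lowered the limma adjusted p of the prefrontal difference to 0.0247 through the shared spread, and raised the striatal difference to 0.27 ± 0.04 (limma adjusted p = 0.352).

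Rxra, the more widespread retinoid X receptor, was read by 3 probe sets. The leading one lay between 3.28 and 3.43 in prefrontal cortex and between 3.18 and 3.50 in striatum, with overlapping classes in both. Its differences were 0.01 ± 0.07 in prefrontal cortex (95% interval -0.15 to 0.17) and 0.07 ± 0.07 in striatum (95% interval -0.09 to 0.23). The second probe set differed by 0.09 ± 0.02 in prefrontal cortex, from 3.34 to 3.38 against 3.25 to 3.28, without a call (limma adjusted p = 0.138), and by 0.01 ± 0.02 in striatum. The third gave -0.03 ± 0.05 and 0.08 ± 0.05, so the 3 probe sets did not share a direction in prefrontal cortex.

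**Figure D3:**
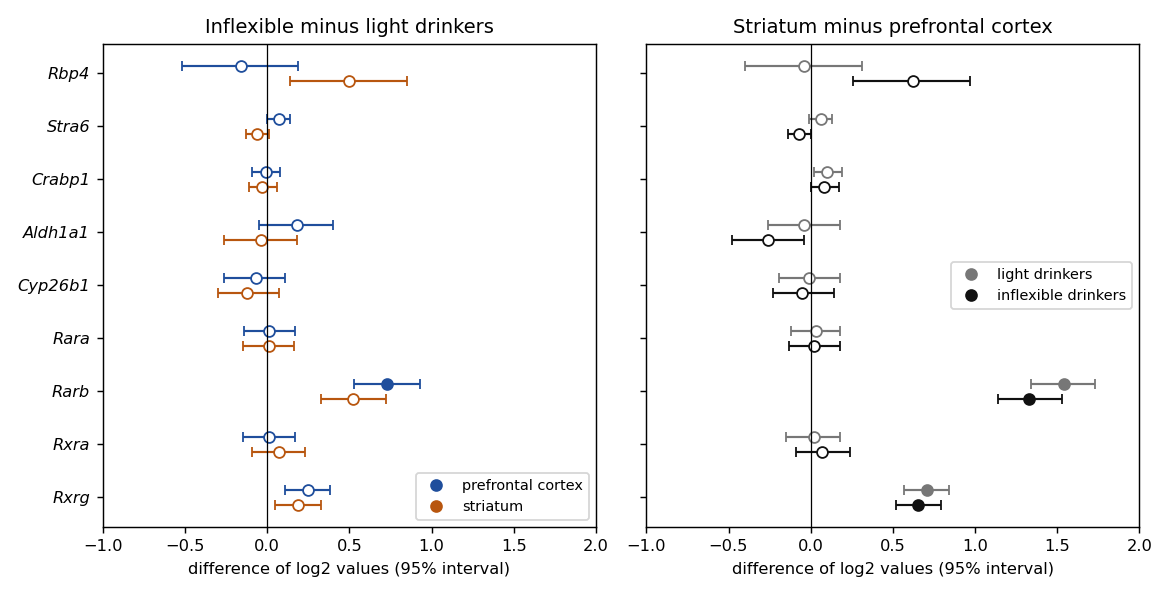
Difference of log2 values with its 95% interval from limma (horizontal axis) for the leading probe set of each gene, inflexible minus light drinkers in each region (left) and striatum minus prefrontal cortex in each class (right); filled symbols passed an adjusted p of 0.05. Of the drinking differences only Rarb in prefrontal cortex, at 0.73, is filled, and of the region differences Rarb (1.54 and 1.33) and Rxrg (0.71 and 0.65).

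Counted over the 9 genes, limma called 1 in the prefrontal drinking comparison, Rarb, where it called 0.826% of all probe sets, and 3 had an unadjusted p under 0.05. Fitted alone, the 10852 probe sets with a mean above log2 4, Rarb among them, gave 215 calls, a larger share. All inflexible arrays lay above all light ones for 4 of the 9 (Stra6, Aldh1a1, Rarb and Rxrg) and below them for 0, while 12.9% of all probe sets were free of overlap in either direction. Of the 4, Stra6 had a mean of 3.01, below the array medians of 3.12 to 3.14, and a difference of 0.07. In striatum limma called 0 of the 9, against 0.0111% of all probe sets, and 3 had an unadjusted p under 0.05 (Rbp4, Rarb and Rxrg). Groups were free of overlap for Rbp4 and Rarb there, against 7.84% of all probe sets. The median difference over the 9 genes was 0.01 in each region and 0.00 over all genes.

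For the difference between the regional drinking effects limma called 0 of the 9, against 0.313% of all probe sets, and Rbp4 and Stra6 had an unadjusted p under 0.05. In the region comparison 2 of the 9 (Rarb and Rxrg) were called in each class, where limma called 3.32% of all probe sets in light and 0.773% in inflexible drinkers. The 10852 probe sets above log2 4, without Rxrg, gave 1036 calls in light and 285 in inflexible drinkers, again larger shares. Regions did not overlap for 3 of the 9 in light drinkers (Crabp1, Rarb and Rxrg), against 16.3% of all probe sets. In inflexible drinkers they did not overlap for 6 of the 9, against 11.5%, with Rbp4, Crabp1, Rarb and Rxrg higher and Stra6 and Aldh1a1 lower in striatum. Crabp1 and Stra6 each had a mean of 3.01, below the array medians, and small region differences. The genes were named with results of these arrays known, so these shares describe them and are not tested.

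The genes whose values followed Rarb most closely over the 12 arrays, among 6463 with a mean above log2 4, were Penk (Pearson r = 0.988), Gpr6 (0.983) and Drd1 (0.981). Penk encodes the enkephalin precursor, Gpr6 an orphan receptor and Drd1 a dopamine receptor. Because the 4 groups differ in mean, a high r over 12 arrays mostly restates their order. Within the 6 prefrontal arrays r was 0.991, 0.912 and 0.975, and within the 6 striatal arrays 0.877, 0.886 and 0.764, and these values too hold both drinking classes and so the difference between them. Their prefrontal differences were 1.58 ± 0.13 for Penk, 1.13 ± 0.13 for Gpr6 and 1.25 ± 0.13 for Drd1, all called by limma, and their striatal ones 0.58 ± 0.13, 0.63 ± 0.13 and 0.62 ± 0.13, with limma adjusted p from 0.407 to 0.508. Like Rarb, all 3 were called in prefrontal cortex and not in striatum, but they were chosen by correlation over the same arrays, which favours a shared pattern.

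**Figure D4:**
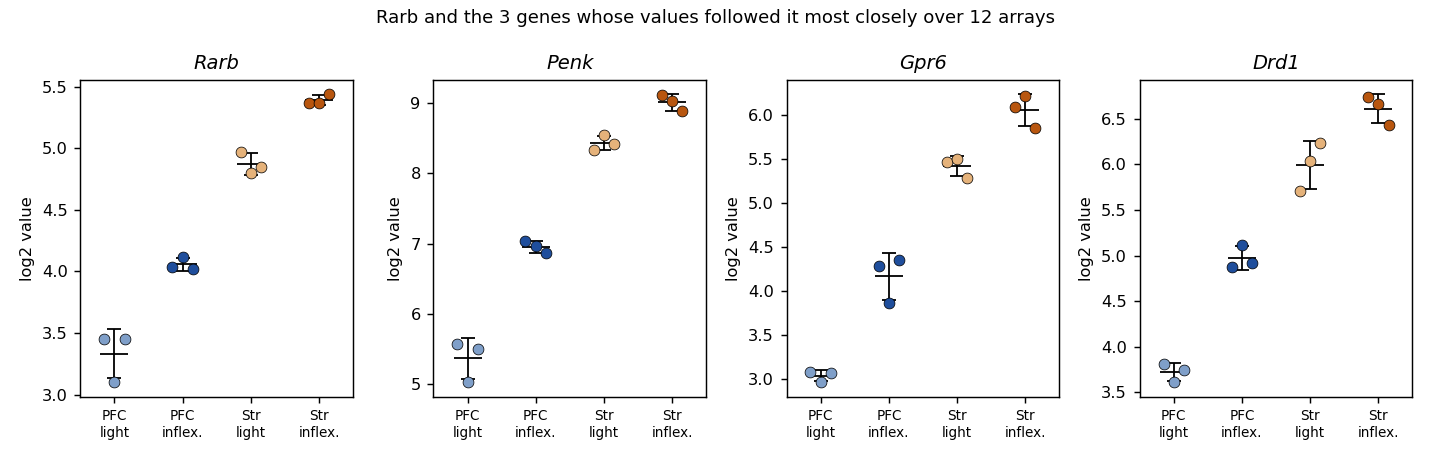
Deposited log2 values (vertical axes, separate ranges) of Rarb and of the 3 genes with the highest Pearson correlation with it over 12 arrays; dots are arrays, lines the mean and SD of 3 arrays. All 4 genes run in the order light prefrontal, inflexible prefrontal, light striatal, inflexible striatal, with r from 0.981 to 0.988.

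For Rbp4 the closest genes were Wfs1 (r = 0.924), Abat (0.907) and Coro2b (0.897). Like Rbp4, these genes had their lower values within each group on the arrays with high hybridisation controls. The part of that split in the likeness was not tested. Aldh1a1 was closest to Utp15 (0.922), Tmem70 (0.891) and Cibar1 (0.886). None of these reached the values seen for Rarb.

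All 3 genes closest to Rarb are on the list of medium spiny neuron markers, of which 20 were measured. The 3 were picked on these same arrays and the list was chosen with earlier results known, so this overlap is described and not tested. The level of that list was taken as the log2 of the summed unlogged values, so its brightest genes weigh most, in striatum Penk. It ran in the same group order as Rarb and Rxrg. It lay between 9.16 and 9.23 in light and 9.91 and 9.93 in inflexible prefrontal arrays. In striatal arrays it lay between 10.92 and 11.09 in light and 11.35 and 11.50 in inflexible drinkers. In prefrontal cortex limma called 7 of the 20 higher and 0 lower in inflexible drinkers (Bcl11b, Penk, Drd1, Rgs9, Pde10a, Gpr6 and Scn4b), with 13 at an unadjusted p under 0.05 and a median difference of 0.63. In striatum it called 0, with 11 at an unadjusted p under 0.05 and a median of 0.39. Between regions it called 17 of the 20 higher in striatum in each class. Markers below log2 4 on every array of a group numbered 8 in light and 4 in inflexible prefrontal cortex, and 3 and 2 in striatum. The part of these neurons in the Rarb and Rxrg differences was not tested. In bulk tissue, fewer cells of a type and less RNA per cell cannot be told apart.

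Other marker lists also moved in prefrontal cortex. Limma called 6 of 13 oligodendrocyte markers higher (median 0.78), 3 of 17 meningeal and perivascular fibroblast markers lower (median -0.26), 1 choroid plexus marker higher and 1 lower of 17 (median 0.18), 2 of 20 interneuron markers lower (median -0.07) and 1 of 11 microglia markers lower (median -0.09). At an unadjusted p under 0.05 in limma were 11, 13, 8, 4 and 2 markers of these lists, in the same order. Of 13 cortical excitatory neuron markers it called 1 higher, Neurod6, although the median of that list was -0.24 and 7 had an unadjusted p under 0.05. It called 0 of 13 endothelial, 0 of 12 astrocyte and 0 of 11 midbrain dopamine neuron markers, with 3, 1 and 2 at an unadjusted p under 0.05. In striatum limma called 0 on each of these lists, with 0 to 7 markers per list at an unadjusted p under 0.05.

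The rest of the retinoid pathway was read from a list of 40 other carriers, dehydrogenases, retinol-processing enzymes and receptors, of which 37 were measured and 7 had a mean above log2 4. In prefrontal cortex limma called 2 higher and 0 lower in inflexible drinkers, Ttr and Lpl. Lpl encodes lipoprotein lipase, which helps tissue take up fat and the retinyl esters in it, and it rose by 1.42 ± 0.12, from 4.95 to 6.37 (limma adjusted p = 0.000836). Retsat, the retinol saturase, had the next smallest p, with a difference of -0.42 ± 0.12 (limma adjusted p = 0.281), and Aldh1a2, another enzyme that makes retinoic acid, gave -0.51 ± 0.18 (limma adjusted p = 0.447). Aldh1a2 is also on the meningeal list above, of which 13 of 17 had an unadjusted p under 0.05 in prefrontal cortex. The median over the 37 was 0.01.

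In striatum limma called 0 of the 37, 0 had an unadjusted p under 0.05, and the median was 0.01. The smallest p was that of the alcohol dehydrogenase gene Adh7, with a difference of 0.06 ± 0.03 (limma adjusted p = 1.00). Ttr and Lpl were also called for the difference between regions in the drinking effect (-6.54 ± 0.32 and -1.35 ± 0.17, limma adjusted p = 6.76e-05 and 0.0139) and for striatum over prefrontal cortex in light drinkers (6.80 ± 0.23 and 1.96 ± 0.12), but 0 of the 37 were called between regions in inflexible drinkers, with 2 at an unadjusted p under 0.05 in limma. Their light prefrontal level was the low one in each of these.

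Other nuclear receptors, such as the NR4A group, and cofactors, such as the coactivators, made up a list of which 25 were measured. A place on this list does not mean that the product of a gene binds RXR. Limma called 0 in the prefrontal drinking comparison, with 6 at an unadjusted p under 0.05 and a median of -0.03. The smallest p belonged to Nr4a3 (0.48 ± 0.12), Kat2b (0.19 ± 0.05), Rorb (-0.62 ± 0.18) and Nr2f6 (-0.22 ± 0.08), with limma adjusted p from 0.167 to 0.496. In striatum limma called 0 and 0 had an unadjusted p under 0.05. Between regions, light drinkers had 3 higher in striatum (Nr4a2, Nr4a3 and Kat2b) and 3 lower (Nr2f1, Rora and Rorb), while limma called 0 in inflexible drinkers, with 4 at an unadjusted p under 0.05.

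Finally, a list of genes described as retinoic acid responsive held 35 measured genes, 3 of them (Rarb, Cyp26b1 and Stra6) among the 9 and 11 with a mean above log2 4. In prefrontal cortex limma called Rarb and Drd1 higher and Egr1 and Bhlhe40 lower in inflexible drinkers, 2 in each direction, with a median over the list of -0.01. The immediate-early gene Egr1 fell from 9.00 to 8.34 (-0.66 ± 0.08, limma adjusted p = 0.00465), and the transcription repressor gene Bhlhe40 fell from 6.24 to 5.72 (-0.52 ± 0.07, limma adjusted p = 0.00998). Drd2, the other main dopamine receptor gene of the striatum, differed by 0.62 ± 0.15 without a call (limma adjusted p = 0.137).

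In striatum limma called 0 of the 35, with 5 at an unadjusted p under 0.05: Rarb (0.52), Meis2 (0.60 ± 0.11), Egr1 (0.41 ± 0.08), Drd1 (0.62 ± 0.13) and Drd2 (0.42 ± 0.15). Egr1 and Meis2, a homeobox gene, thus had differences of opposite sign in the regions, and limma called the difference itself for both, at 1.07 ± 0.11 (adjusted p = 0.00524) and 1.07 ± 0.16 (adjusted p = 0.0302). Rarb, Drd1 and Drd2 had the same sign in both. Drd1, Drd2 and Meis2 are also on the medium spiny neuron list. Called between regions were 3 higher and 2 lower of the 35 in light and 4 higher and 1 lower in inflexible drinkers, Rarb, Drd1 and Drd2 among the higher ones in each class.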

How the data were processed

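Total RNA of prefrontal cortex and striatum was hybridised to 1-colour arrays. The values the authors deposited are summarised per probe set and were taken as log2. RMA and the affy package are named, without versions, in the submitters' processing notes. The log base was read from the values (2.76 to 11.56 over the tested probe sets, array medians 3.12 to 3.14), so folds assume base 2. Low values are compressed by such a summary. Of 45101 probe sets, 64 controls were left out. The platform annotation gave 34945 a single symbol, 932 several and 9160 none. No sample column was left unmapped.

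The 4 group means were fitted to 12 arrays by lmFit and eBayes of limma 3.58.1 (R 4.3.3), with 8 residual degrees of freedom, in a script tested on simulated data. Two-sided p-values were adjusted by Benjamini-Hochberg over 45037 probe sets. The comparisons share arrays. Promoter windows came from the RefSeq table. The 9 genes, the 13 lists and the rules were chosen with earlier results of these data known. All 9 genes are named, from the retinoid lists the called genes or those with the smallest p, and the 3 closest by correlation for each gene above log2 4.

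Between the prefrontal groups, same-numbered arrays deviated together (r = 0.74, 0.85 and 0.62 over 10852 probe sets), although array 1 of one class correlated best with array 3 of the other. Both prefrontal arrays numbered 2 had high hybridisation controls and the others low ones, so pairing by number cannot be told apart from the control split there. In striatum r was 0.25, 0.26 and -0.64, so the numbers pair nothing there. Between regions r was -0.66, -0.51 and 0.60 in light and -0.12, -0.77 and -0.55 in inflexible drinkers. The 0.60 was the only one of these between arrays on the same side of the control split. The split in hybridisation controls was set at the widest gap in their mean. Alternatives were blocks for the number and the split, each side of the split, only the groups compared, only probe sets above log2 4, quantile normalisation, centring, gene means and leaving out each array. The prefrontal fit with the replicate block was added after seeing the data. The number of arrays limits the precision, and the share of probe sets above log2 4 was 22.4% to 25.0% per array.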

Additional observations from a re-analysis of the deposited data

How the results depend on the processing

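The settings gave 699 further values for the 9 genes. In 642 the direction and the side of the threshold were kept, 8 lost a call, 6 gained one and 43 changed sign, the last only for differences that were not called. Of the 9 genes the prefrontal comparison called 1, and 0 on the high-control arrays alone, with only the groups compared and with prefrontal arrays alone and the replicate block, the last added after seeing the data. Leaving out an array gave 1 to 2, the higher count without light striatal array 2. The striatal count of 0 became 1 with the control split as a block, and 0 to 1 without an array, the call coming without light prefrontal array 2. The count for the difference between regions in the drinking effect went from 0 to 1 with that block. The region counts of 2 became 0 in both classes on the high-control arrays, a fit with 1 residual degree of freedom, and 1 in both above log2 4, where Rxrg is not tested. Quantile normalisation and centring left Rbp4 between regions in inflexible drinkers at 0.62, with limma adjusted p of 0.0457 and 0.0242. The replicate block on all 12 arrays changed no call of the 9 genes, and lowered the prefrontal calls over all probe sets from 372 to 206. That number was 1119 with the split as a block, 1243 on the low-control arrays, 0 on the high-control arrays, 198 with only the prefrontal groups, 899 with those groups and the replicate block, and 157 to 394 without an array. In striatum it was 5, and 34 with the split as a block.

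Sign changes on the low-control arrays in prefrontal cortex were Rara at -0.06 and Rxra at -0.06, and in striatum Crabp1 at 0.03, Aldh1a1 at 0.11 and Rxra at -0.03. On those arrays the difference between regional effects was 0.03 for Crabp1 and 0.04 for Cyp26b1, the region difference of Aldh1a1 in light drinkers 0.05 and of Cyp26b1 in inflexible drinkers 0.01. On the high-control arrays Rara in striatum was -0.06, Rxrg between regional effects 0.08, the region differences of Cyp26b1 and Rxra in light drinkers 0.06 and -0.11, and those of Cyp26b1 and Rara in inflexible drinkers 0.04 and -0.13. With the split as a block Rara was -0.03 in striatum and -0.01 between regions in inflexible drinkers, and Cyp26b1 was 0.01 between regional effects. The mean of all probe sets gave Rxra -0.01 between regions in light drinkers. Without an array, Crabp1 ran from -0.02 to 0.01, Rara from -0.07 to 0.07 and Rxra from -0.03 to 0.04 in prefrontal cortex. In striatum Crabp1 ran from -0.05 to 0.02, Aldh1a1 from -0.14 to 0.08, Rara from -0.03 to 0.05 and Rxra from -0.02 to 0.14. Between regional effects Crabp1 ran from -0.05 to 0.03, Cyp26b1 from -0.12 to 0.01, Rxra from -0.03 to 0.13 and Rxrg from -0.10 to 0.02. Between regions in light drinkers Rbp4 ran from -0.15 to 0.07, Aldh1a1 from -0.08 to 0.01, Cyp26b1 from -0.06 to 0.05, Rara from -0.01 to 0.06 and Rxra from -0.06 to 0.11, and in inflexible drinkers Rara from -0.03 to 0.11. The cause was not tested.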
